A study of Homo sapiens with 17 samples.

Results

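Chromosome 19 carries the densest set of zinc finger genes of the human genome, and 129 of them were read in YB5 cells treated with toyocamycin. They were taken as the protein-coding genes of chromosome 19 whose symbol is ZNF followed by digits only and whose counts sum to at least 10 over the 8 DMSO libraries. The annotation lists 240 such genes, of which 239 are in the table of 19141 genes, and 110 of these had fewer counts than the minimum. The genes nearest to the minimum were ZNF429 with 15 counts, ZNF564 with 19, ZNF93 with 23 and ZNF709 with 24 on the inner side, and ZNF536 with 9, ZNF114 with 8, ZNF439 with 8 and ZNF175 with 7 on the outer side.

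YB5 is a human colon cancer line derived from SW48 cells, in which a silenced CMV promoter drives a GFP gene from a single insertion, so all libraries come from 1 engineered line. The cells received DMSO, the vehicle, or 250 nM toyocamycin, an adenosine analogue, and polyA RNA was sequenced from 17 libraries, of which 8 were DMSO and 9 toyocamycin. Per arm there were 2 libraries after 2 h, a single library after each of 24 and 48 h and 3 after 72 h, while for 10 h the labels list 1 of DMSO and 2 of toyocamycin. The final time is 72 h in the sample labels, which are followed here, while the study's text gives a longer time. The labels also name 2 batches, and batch 2 holds the second replicate of both arms at 2 and 10 h, which is 4 libraries, with the other 13 in batch 1.

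The libraries held 8735465 to 22121364 counts on genes. The epithelial genes EPCAM, CDH1, KRT8, KRT18 and CDX2 were between 56.6 and 4689 CPM in the DMSO libraries, and KRT19 was between 26.0 and 251 CPM. In contrast, CDX1 and LGALS4 were at most 0.210 CPM there, VIL1 at most 2.26 CPM and CDH17 at most 2.42 CPM. Of 10 markers of blood, endothelial and stromal cells, none was over 8.08 CPM in a DMSO library, and ACTA2 reached 92.1 CPM in a toyocamycin library. In total RNA from a culture, fewer cells of a type and less RNA per cell cannot be told apart. CPM values are counts scaled to library size with TMM factors over the 17 libraries.

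Most zinc finger proteins of this chromosome bind DNA through a row of C2H2 fingers, and many begin with a KRAB domain, which recruits the corepressor KAP1 (TRIM28) and the histone methyltransferase SETDB1 to silence transposable elements and genes. The genes arose by repeated tandem duplication, so that relatives lie side by side in clusters. Their transcripts are typically short-lived and low in abundance.

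Genes whose neighbours lay within 500 kb were placed in the same cluster, and 9 clusters held at least 5 tested members. In GRCh38 coordinates, C1 spans chr19:2819868-2944971 with 5 members, C2 spans chr19:8509678-9793180 with 11, C3 spans chr19:11483427-12640098 with 23, C4 spans chr19:19668796-24129968 with 14 and C5 spans chr19:34677639-34964229 with 5. On the long arm further out, C6 spans chr19:43525497-44500524 with 13 members, C7 spans chr19:51571283-53580269 with 10, C8 spans chr19:55476617-56671783 with 9 and C9, next to the telomere, spans chr19:57191500-58481230 with 28. The remaining 11 members were scattered. The clusters differ in the proteins they encode. A KRAB-A pattern, which is a leucine and a tyrosine followed after any 2 residues by valine, methionine, any residue and glutamate, was found in 87 of the 129 translated proteins. It was in 10 of 10 members of C7, 18 of 23 in C3 and 12 of 14 in C4, and in 0 of 9 in C8, whose median of 6 fingers was the lowest among the 9 clusters, against 17 in C7.

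The clusters also differed near their transcription starts. RefSeq promoter windows (GRCh38.p14) of 300 bases, 250 before the start and 50 after it, were at hand for 117 members. A CCAAT box, the letters CCAAT on either strand (ATTGG on the other), is a binding site of the factor NF-Y in many promoters. It was in 70 of these 117 windows, or 59.8%, against 36.6% of the windows of 15345 protein-coding genes. The share was 5 of 5 in C1, 20 of 22 in C3, 11 of 11 in C4 and 19 of 25 in C9, but 2 of 10 in C2, 2 of 4 in C5, 4 of 13 in C6, 1 of 9 in C7 and 4 of 8 in C8. CpG dinucleotides numbered 10 in the median window of C4 and 27.5 in that of C8, and 23 over all genes. These counts were made after the expression values had been seen, and a match is a description of letters and not a site in use.

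Stretches before the start of 7 members show windows with and without boxes, with each CCAAT or ATTGG in capitals. They run 5′ to 3′ along the gene's own strand, end at the last base before the start unless an annotated exon lies there, and were picked after the windows had been read. ZNF556 of C1 (chr19:2867085-2867334, plus strand) holds 5 boxes, while ZNF441 of C3 (chr19:11766750-11766999, plus strand) holds 1 and ZNF714 of C4 (chr19:21081953-21082158, plus strand) holds 2. ZNF317 (chr19:9140147-9140396, plus strand) holds 4, although it belongs to C2, where most windows had none, and in C7 the window of ZNF766, not shown, holds 1. No box lies before ZNF224 of C6 (chr19:44094111-44094360, plus strand), ZNF841 of C7 (chr19:52095766-52096015, minus strand) or ZNF787 of C8 (chr19:56121296-56121545, minus strand).
ZNF556: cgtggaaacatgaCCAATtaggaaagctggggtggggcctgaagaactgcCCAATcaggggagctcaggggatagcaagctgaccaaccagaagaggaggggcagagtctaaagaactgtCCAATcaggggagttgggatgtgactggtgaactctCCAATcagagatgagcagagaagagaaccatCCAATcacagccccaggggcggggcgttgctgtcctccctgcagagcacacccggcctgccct
ZNF441: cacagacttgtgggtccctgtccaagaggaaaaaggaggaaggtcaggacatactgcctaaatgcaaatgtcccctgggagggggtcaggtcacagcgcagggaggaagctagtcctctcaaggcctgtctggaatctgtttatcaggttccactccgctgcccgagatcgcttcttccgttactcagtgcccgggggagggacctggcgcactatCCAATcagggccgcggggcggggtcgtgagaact
ZNF714: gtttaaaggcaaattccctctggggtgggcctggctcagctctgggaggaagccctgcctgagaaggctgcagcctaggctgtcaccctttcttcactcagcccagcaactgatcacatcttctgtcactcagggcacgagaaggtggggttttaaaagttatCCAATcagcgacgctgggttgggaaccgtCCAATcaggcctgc
ZNF224: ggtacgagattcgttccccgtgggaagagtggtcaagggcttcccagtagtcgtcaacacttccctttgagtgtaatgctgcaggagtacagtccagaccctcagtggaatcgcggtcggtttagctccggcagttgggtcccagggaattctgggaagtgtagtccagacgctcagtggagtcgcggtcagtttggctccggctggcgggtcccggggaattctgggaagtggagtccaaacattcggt
ZNF841: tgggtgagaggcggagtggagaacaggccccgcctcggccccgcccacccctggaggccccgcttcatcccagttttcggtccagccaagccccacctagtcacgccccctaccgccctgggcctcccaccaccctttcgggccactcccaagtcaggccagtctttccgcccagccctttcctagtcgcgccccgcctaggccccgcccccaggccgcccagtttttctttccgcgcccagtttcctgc
ZNF317: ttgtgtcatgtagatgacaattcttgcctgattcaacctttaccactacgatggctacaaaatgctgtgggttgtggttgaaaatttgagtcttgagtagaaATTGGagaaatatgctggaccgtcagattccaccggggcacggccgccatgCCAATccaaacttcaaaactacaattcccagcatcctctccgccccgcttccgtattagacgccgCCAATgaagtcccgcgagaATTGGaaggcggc
ZNF787: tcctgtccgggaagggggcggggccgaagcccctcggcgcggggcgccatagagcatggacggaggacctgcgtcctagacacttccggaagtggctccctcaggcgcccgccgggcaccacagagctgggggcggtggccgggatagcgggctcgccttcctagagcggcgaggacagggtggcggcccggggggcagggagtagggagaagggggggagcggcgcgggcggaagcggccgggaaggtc

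Toyocamycin for 2 h lowered a large share of these genes. With edgeR's quasi-likelihood test and an adjusted p under 0.1, 51 of 128 tested members were downregulated and 0 were upregulated, where 8.42% of all 14491 genes tested were called down and 0.518% were called up. At an unadjusted p under 0.05 the counts were 68 down and 0 up, where 1830 and 347 of the 14491 genes were. DESeq2 called 45 down and 0 up, where 7.97% and 0.614% of all genes were called. The median log2 fold change of the members was -0.74 and that of all genes was 0.02. ZNF genes of the other chromosomes had 80 of 202 called down with a median of -0.58, and the other protein-coding genes of chromosome 19 had 29 of 786 called down with a median of 0.14. In the library pair of batch 1 the median difference was -0.52 and in that of batch 2 it was -0.75, with 105 of 128 members lower in each pair. Of the 14491 genes, 6030 were lower in the pair of batch 1 and 6673 in that of batch 2. With the replicate number, which marks the batch at 2 h, as a block, 55 were down and ZNF580 alone was up. The shares of all genes were then 9.80% and 0.842%. With the scale set by the mitochondrially encoded genes, 9 members were called down, where 0.600% of all genes were, while the median of the members was -0.82.

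Among the called members with an average log2 CPM of at least 2, the 5 with the largest falls at 2 h lay in C3, C6 and C9 and outside the clusters. ZNF557, a scattered gene with a KRAB-A pattern and 10 fingers, was at 9.68 and 14.7 CPM in the DMSO libraries and at 1.86 and 3.36 CPM after toyocamycin, a log2 fold change of -2.24 ± 0.27 (SE, n = 2 per arm, edgeR adjusted p = 9.45e-05). ZNF543, in C9, was at 13.3 and 18.2 CPM against 3.44 and 4.06 CPM, with a log2 fold change of -2.07 ± 0.20 (edgeR adjusted p = 1.91e-05). The treated libraries of both genes lay below both DMSO libraries.

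ZNF441 in C3, shown above with a single box, was at 2.73 and 5.35 CPM in DMSO and fell to 0.621 and 1.30 CPM. ZNF230 in C6 was at 2.02 and 2.16 CPM and fell to 0.497 and 0.542 CPM. ZNF844, also in C3, was at 4.33 and 8.22 CPM and fell to 1.12 and 1.95 CPM. Of its 100-base windows, 44.5% were also found in the transcript of another gene. The gene sharing the most of them overlaps ZNF844 on the same strand, so reads of the 2 may not be fully separated. The log2 fold changes of ZNF441, ZNF230 and ZNF844 were -2.09 ± 0.41, -2.0 ± 0.36 and -2.05 ± 0.35 (SE, n = 2 per arm). In this order, the edgeR adjusted p was 0.00423, 0.00261 and 0.00183.

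The DMSO level told little of the change at this time. ZNF787, which had the highest DMSO level of the members at 44.1 CPM per kb of exon, was at 107 and 79.3 CPM in DMSO and at 116 and 78.4 CPM after toyocamycin, so that the arms overlapped (log2 fold change 0.06 ± 0.25). ZNF317, the member of C2 with the most DMSO counts, was at 47.8 and 52.2 CPM against 40.4 in both treated libraries, and its log2 fold change of -0.31 ± 0.14 did not pass the test (edgeR adjusted p = 0.298). Other members with many DMSO counts, ZNF556 and ZNF791 among them, were downregulated, as given below. Over the 128 members, the change at 2 h had a Spearman correlation of 0.09 with the DMSO counts, -0.28 with exon length and -0.12 with the number of fingers, which are descriptions across genes of the same libraries.

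**Figure D1:**
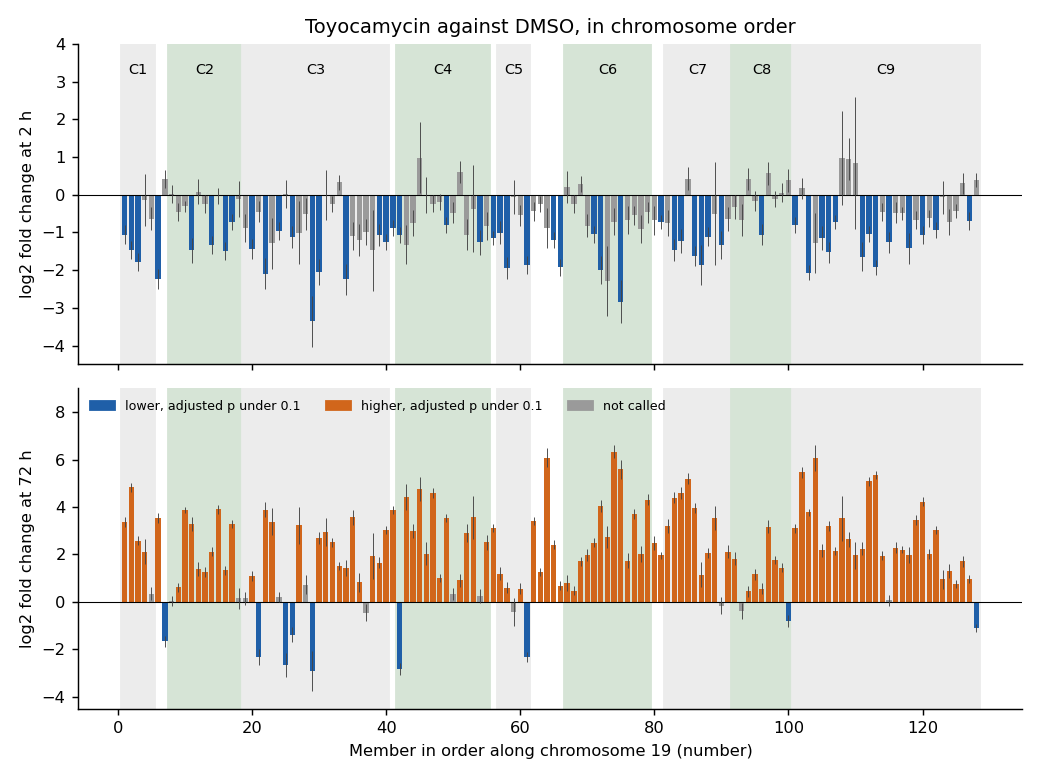
Log2 fold change of toyocamycin against DMSO for 128 members in order along chromosome 19, at 2 h above and at 72 h below, with bars of 1 SE. Shaded bands mark clusters C1 to C9, blue and orange bars passed an adjusted p under 0.1, and grey bars did not. At 2 h 51 bars are blue and 0 orange, and at 72 h 9 are blue and 106 orange.

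After 10 h, members were called in both directions, in numbers that depend on the scaling. In the fit of all 17 libraries, 29 of 129 members were downregulated, where 24.4% of 16521 genes were called down, and 22 were upregulated, where 20.4% were called up. The median was -0.02, against 0.42 for all genes, and within batch 2, where both arms have a library, the median difference was 0.02 with 63 members lower and 65 higher. DESeq2's size factors gave 17 down and 31 up with a median of 0.19, where 20.4% of all genes were called down and 25.8% up. Library size alone gave 45 and 12 with -0.51, where 34.4% and 11.3% of all genes were called. Scaling on the mitochondrially encoded genes gave 49 and 1 with -1.23, where 32.5% and 3.05% were. The second toyocamycin library stands apart, with 1329 counts over 108 of the 110 genes below the minimum where the first had 87, and without it 36 members were down and 26 up with a median of -0.39.

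ZNF460 and ZNF317 were upregulated at this time. ZNF460 in C9 was at 6.37 CPM in the DMSO library and at 54.7 and 47.6 CPM in the toyocamycin libraries, a log2 fold change of 3.01 ± 0.38 (edgeR adjusted p = 2.01e-05). ZNF317 was at 37.9 CPM against 145 and 98.4 CPM (1.68 ± 0.26, edgeR adjusted p = 0.000122). ZNF101, the first gene of C4, was at 20.7 CPM against 9.21 and 7.29 CPM and was downregulated (-1.32 ± 0.26, edgeR adjusted p = 0.00115).

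At 24 and 48 h each arm had 1 library, so no test was made and members were counted past 2-fold. At 24 h, 71 of 128 members were more than 2-fold higher and 17 more than 2-fold lower, where 29.7% and 27.8% of all genes were, and the median was 1.27. This direction turned with the scale set by the mitochondrially encoded genes, which gave 19 higher, 64 lower and a median of -1.0, and library size alone gave 41 higher, 32 lower and a median of 0.25. At 48 h the counts were 93 higher and 4 lower, where 38.1% and 29.9% of all genes were, with a median of 2.32. The median of all genes was 0.00 at 24 h and 0.16 at 48 h. Relative to their mean in DMSO at 2 h, the members stood at a median log2 difference of 0.97 in the toyocamycin library of 24 h and 1.16 in that of 48 h, and at -0.24 and -0.64 in the DMSO libraries of these times.

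**Figure D2:**
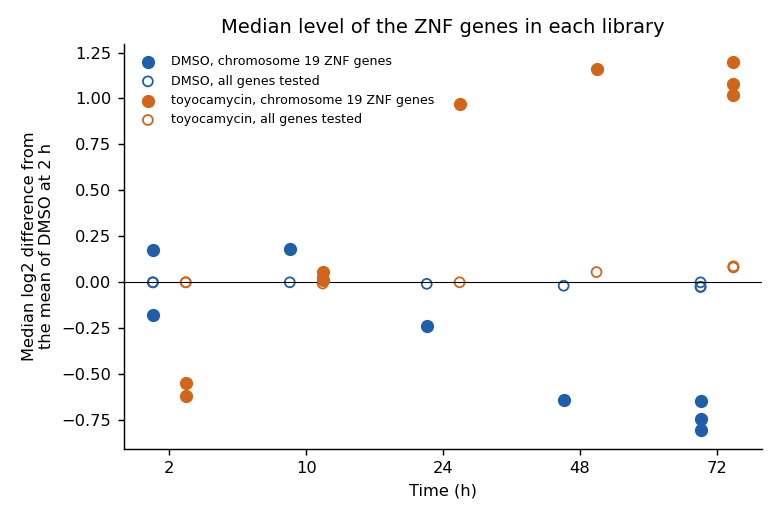
Median log2 difference of the members (filled) and of all tested genes (open) from the mean of the DMSO libraries of 2 h, for each of the 17 libraries, against time in h. DMSO libraries are blue and toyocamycin libraries orange. The filled toyocamycin points pass from between -0.62 and -0.55 at 2 h to between 1.02 and 1.20 at 72 h, while the filled DMSO points of 72 h lie between -0.81 and -0.64.

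By 72 h the balance was reversed. Of 128 members, 106 were upregulated, where 47.0% of all genes were called up, and 9 were downregulated, where 41.9% were called down. The median log2 fold change was 2.09, against 0.18 for all genes, 1.32 for 202 ZNF genes of other chromosomes, of which 136 were up and 42 down, and -0.50 for 786 other genes of chromosome 19, of which 290 were up and 387 down. In 103 members every toyocamycin library was above every DMSO library of 72 h, and in 9 every toyocamycin library was below. The same count over all genes is not given here, and 47.0% of them were called up and 41.9% down. The members' summed counts were 4084 to 4268 CPM without TMM in the toyocamycin libraries of 72 h and 1163 to 1246 CPM in the DMSO libraries.

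Among the called members with an average log2 CPM of at least 2, the 5 with the largest rises at 72 h lay in C6, C7 and C9. ZNF224, a KRAB repressor of the aldolase A gene with 18 fingers, was at 0.644, 0.464 and 0.472 CPM in DMSO and at 39.7, 46.7 and 38.8 CPM after toyocamycin. Its log2 fold change was 6.33 ± 0.28 (SE, n = 3 per arm, edgeR adjusted p = 1.24e-11). The rise came late, since the gene was at 2.41 CPM in the toyocamycin library of 24 h against 2.65 CPM in DMSO, and at 3.90 against 0.337 CPM at 48 h.

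ZNF460 was at 4.46, 4.37 and 3.43 CPM in DMSO and at 175, 179 and 175 CPM after toyocamycin (5.46 ± 0.24, edgeR adjusted p = 1.18e-11). It was already at 214 CPM at 24 h and 247 CPM at 48 h. The treated values of ZNF460 and ZNF224 thus differed in when they left the DMSO range, a difference read from single libraries at 24 and 48 h.

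ZNF776, in C9, was at 2.92, 3.67 and 3.99 CPM in DMSO and at 160, 132 and 128 CPM after toyocamycin (5.33 ± 0.17, edgeR adjusted p = 8.30e-13). ZNF211, of the same cluster, was at 2.23, 2.23 and 2.83 CPM against 86.7, 81.3 and 74.6 CPM (5.08 ± 0.18, edgeR adjusted p = 1.75e-12). ZNF841, in C7, was at 0.495, 0.604 and 1.07 CPM against 26.2, 29.4 and 24.2 CPM (5.20 ± 0.25, edgeR adjusted p = 2.68e-11), and overlaps ZNF432 on the same strand, which rose as well. The arms of these members did not overlap in any library of 72 h.

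Abundant members also rose. ZNF317 was at 36.1, 34.1 and 35.3 CPM in DMSO and at 494, 521 and 490 CPM after toyocamycin (3.87 ± 0.12, edgeR adjusted p = 8.72e-13). ZNF121, also in C2 and chosen after its values were seen, was at 30.6, 24.0 and 34.7 CPM against 485, 421 and 412 CPM (3.92 ± 0.19, edgeR adjusted p = 3.27e-11). It had been at 1073 CPM at 24 h, the highest value of any member in any library. ZNF787 was at 113, 87.2 and 63.6 CPM in DMSO and at 207, 238 and 260 CPM after toyocamycin (1.45 ± 0.20, edgeR adjusted p = 7.51e-06).

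The member with the most DMSO counts of each cluster was taken as well, a choice that uses the DMSO side of each fold change. ZNF556 of C1, with 5 boxes before its start, was at 15.4 and 25.3 CPM in DMSO and at 5.30 and 6.55 CPM after 2 h of toyocamycin (-1.78 ± 0.23, edgeR adjusted p = 0.000198), and at 72 h at 10.7, 8.36 and 8.67 CPM against 56.9, 53.7 and 51.8 CPM (2.58 ± 0.19, edgeR adjusted p = 3.56e-09). ZNF791 of C3 fell at 2 h from 21.8 and 34.7 CPM to 11 and 12.8 CPM (-1.25 ± 0.22) and at 72 h was at 13.9, 11.3 and 14.5 CPM against 119, 106 and 92.3 CPM (3.03 ± 0.19). ZNF766 of C7 fell at 2 h from 13.5 and 19 CPM to 6.13 and 8.94 CPM (-1.11 ± 0.25) and at 72 h was at 5.80, 9.20 and 7.17 CPM against 32.6, 26.7 and 31.9 CPM (2.07 ± 0.21). These 3 passed the test in opposite directions at the 2 times, but with the scale set by the mitochondrially encoded genes their falls at 2 h, of nearly the same size, did not pass it.

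The most abundant members of C4, C6 and C9 were not called at 2 h and rose less. ZNF714 of C4 was at 23.1, 20.3 and 29.5 CPM in DMSO of 72 h and at 52.6, 49.5 and 42.8 CPM after toyocamycin (1.02 ± 0.17, edgeR adjusted p = 5.38e-05). ZNF428 of C6, whose protein holds 1 finger and whose gene overlaps SRRM5 on the other strand, was at 19.3, 15.8 and 11.7 CPM against 52.6, 48.7 and 48.5 CPM (1.71 ± 0.18, edgeR adjusted p = 2.65e-07). ZNF584 of C9 was at 37.4, 33.4 and 30.3 CPM against 46.3, 59.4 and 61.5 CPM (0.76 ± 0.16, edgeR adjusted p = 0.00033). With the scale set by the mitochondrially encoded genes, ZNF714 and ZNF584 turned negative at 72 h, and ZNF428, like ZNF787, was no longer called.

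**Figure D3:**
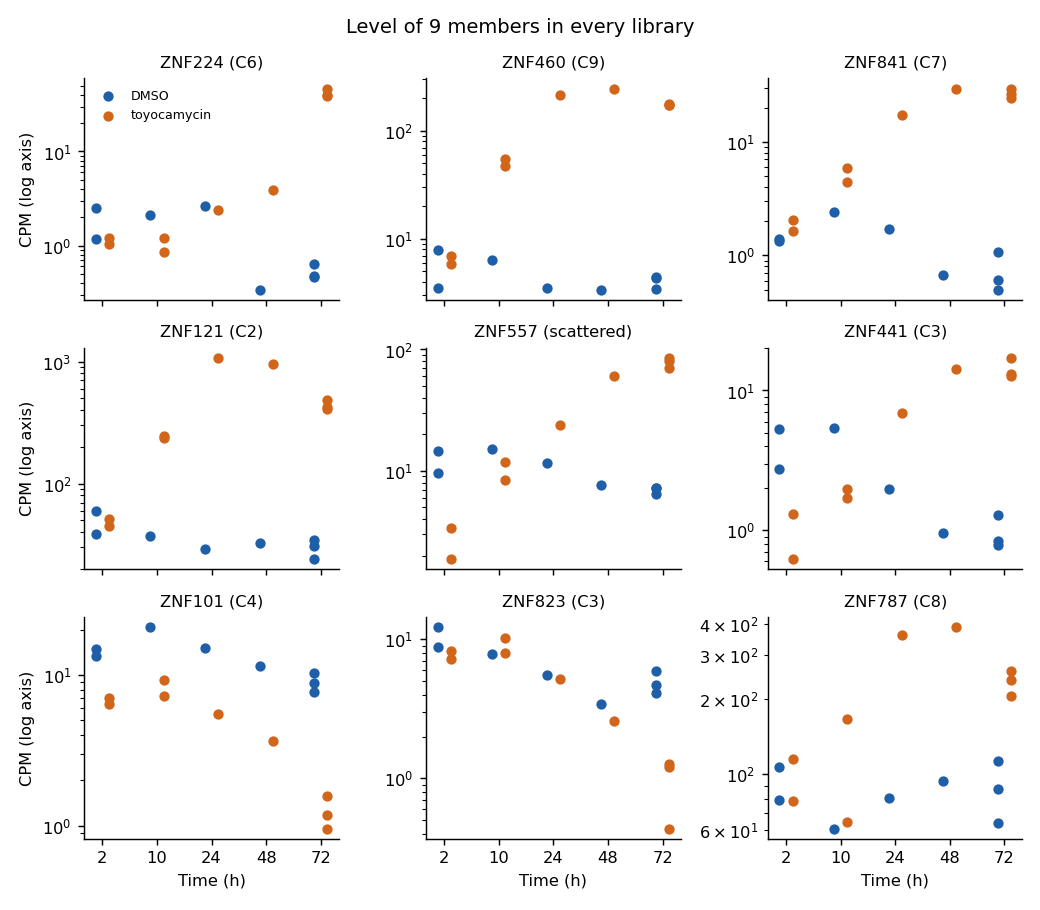
CPM on a log axis of 9 members in every library against time in h, DMSO in blue and toyocamycin in orange. ZNF224 is above DMSO only from 48 h, ZNF460 and ZNF121 are above it from 10 h, ZNF557 and ZNF441 are below it at 2 h and above it at 24, 48 and 72 h, and ZNF101 and ZNF823 are below it at 72 h.

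Against the direction of the rest, 9 members were downregulated at 72 h, and 4 of them lie in C3. ZNF101 had the largest fall among those with an average log2 CPM of at least 2, from 7.73, 10.3 and 8.80 CPM in DMSO to 1.18, 1.58 and 0.956 CPM after toyocamycin (-2.82 ± 0.24, edgeR adjusted p = 2.15e-08). ZNF823 in C3 went from 4.11, 4.69 and 5.97 CPM to 1.28, 1.20 and 0.435 CPM (-2.32 ± 0.33, edgeR adjusted p = 8.04e-06). ZNF792 in C5 went from 11.8, 8.41 and 10.5 CPM to 1.57, 2.32 and 2.09 CPM (-2.32 ± 0.22, edgeR adjusted p = 9.92e-08). None of the treated libraries of these genes reached the lowest DMSO library.

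The others downregulated were ZNF358, ZNF446, ZNF444, ZNF69, ZNF700 and ZNF878. ZNF358 lies on the short arm and encodes no KRAB-A pattern, and it was at 14.9, 11.6 and 10.6 CPM in DMSO and at 3.24, 2.78 and 5.39 CPM after toyocamycin (-1.66 ± 0.23, edgeR adjusted p = 6.91e-06). ZNF446, the last gene of the chromosome in this set, was at 12.9, 12.2 and 10.4 CPM against 5.01, 5.0 and 6.26 CPM (-1.09 ± 0.17, edgeR adjusted p = 2.96e-05). It overlaps ZNF324, which rose, on the same strand and SLC27A5 on the other strand, so their reads may not be fully separated. ZNF878 had at most 3 counts in each toyocamycin library of 72 h, and its fitted fold is not a bound.

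Of the 51 members downregulated at 2 h, 43 were upregulated at 72 h, where 82.8% of all 128 members and 47.0% of all genes were. ZNF700, ZNF878, ZNF101 and ZNF792 were down at both times, and ZNF440, ZNF100, ZNF765 and ZNF552 were not called at 72 h. Another 63 members were up at 72 h without having been called at 2 h, so the rise was not confined to members called down at 2 h. The difference between the effects was tested in the same fit, and 108 of 128 members had a higher effect at 72 h than at 2 h, where 38.0% of all genes had, and 6 had a lower effect, where 38.1% of all genes had. The most positive differences were those of ZNF776 (7.26 ± 0.26), ZNF224 (7.04 ± 0.45) and ZNF555 (6.30 ± 0.31), with edgeR adjusted p of 3.17e-11, 2.45e-09 and 1.73e-10. The most negative were those of ZNF358 (-2.07 ± 0.33), ZNF823 (-1.87 ± 0.44) and ZNF101 (-1.74 ± 0.33), with edgeR adjusted p of 4.76e-05, 0.00142 and 0.000221.

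The members also drifted without the drug. Between DMSO at 2 h and DMSO at 72 h, 82 of 128 members were lower at 72 h, where 11.4% of all genes were, and 5 were higher, where 10.2% were, with a median of -0.91. These 5 were ZNF565, ZNF576, ZNF581, ZNF419 and ZNF773, of which ZNF773 had at most 3 counts in each library of 2 h. ZNF genes of the other chromosomes had 68 of 202 lower, with a median of -0.34. The count of lower members was smaller without the second DMSO replicate of 2 h, which belongs to batch 2. That fit leaves a single DMSO library of 2 h. In a fit of all 17 libraries 64 members were lower, where 5.56% of all genes were. With batch as a term in these libraries 60 were, where 7.47% of all genes were. With the scale set by the mitochondrially encoded genes, 2 members were lower, where 0.248% of all genes were, and 2 higher, where 3.89% were. The median was then -0.22 for the members and 0.62 for all genes, a difference of -0.84, against -0.89 with TMM. A scaling shifts both medians nearly alike, so this difference could hardly change. The DMSO comparison shares libraries with those of 2 h and of 72 h, so a low DMSO level at 72 h enters the rises given above. Set against DMSO of 2 h instead, a reference added after the data had been seen, 87 members were higher in toyocamycin at 72 h, where 45.2% of all genes were, and 16 were lower, where 41.6% were, with a median of 1.23. By the test, 19 members upregulated against DMSO of 72 h were not above DMSO of 2 h. In 80 members, all 3 toyocamycin libraries of 72 h were above all 8 DMSO libraries, a count not given here over all genes.

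ZNF441 illustrates the drift. It was at 2.73 and 5.35 CPM in DMSO at 2 h and at 0.842, 0.790 and 1.29 CPM in DMSO at 72 h (-2.02 ± 0.35, edgeR adjusted p = 0.00138). After toyocamycin at 72 h it was at 17.1, 12.6 and 13.0 CPM, which is above DMSO of either time, with log2 fold changes of 3.88 ± 0.32 against 72 h and 1.86 ± 0.32 against 2 h. ZNF836, in C7, was the only member upregulated against DMSO of 72 h (1.15) and downregulated against DMSO of 2 h (-1.06).

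With TMM scaling all 9 cluster medians were negative at 2 h and positive at 72 h. At 2 h they were between -1.17 in C7 and -0.12 in C8, and the counts called down stand beside 8.42% of all genes. C7 had 6 of 10 members called down, C3 had 9 of 22 with a median of -1.09, C1 had 3 of 5 with -1.06, C5 had 3 of 5 with -1.01, C9 had 13 of 28 with -0.71, C6 had 3 of 13 with -0.71, C4 had 3 of 14 with -0.61 and C2 had 4 of 11 with -0.31. In C8 only ZNF784 was called down, with a log2 fold change of -1.06, and 4 of its 9 members had a positive value.

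At 72 h the cluster medians were between 0.56 in C5 and 3.37 in C7, and the counts called up stand beside 47.0% of all genes, to which those of C3 and C5 were nearest. All 13 members of C6 were upregulated, as were 26 of 28 in C9, 9 of 10 in C7, 11 of 14 in C4, 9 of 11 in C2, 4 of 5 in C1, 7 of 9 in C8, 14 of 22 in C3 and 3 of 5 in C5. C3 had 4 of the 9 downregulated members, 2 of which, ZNF69 and ZNF700, lie next to each other within the cluster. Against DMSO of 2 h, C5 had 0 of 5 members upregulated and 2 downregulated, with a median of -0.35, while C7 kept a median of 2.13 and C6 of 1.56.

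The clusters moved at different times in the single libraries of 24 and 48 h. C6 had a median of -0.12 at 24 h and 2.39 at 48 h, and C4 had 0.39 and 2.47. C8 had its highest median, 1.93, at 24 h, and 1.21 at 48 h, whereas C7 had 2.43 and 4.19. In C6, ZNF225 was at a log2 fold change of -1.05 at 24 h and ZNF45 at -1.47, and both were among the 13 upregulated at 72 h.

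**Figure D4:**
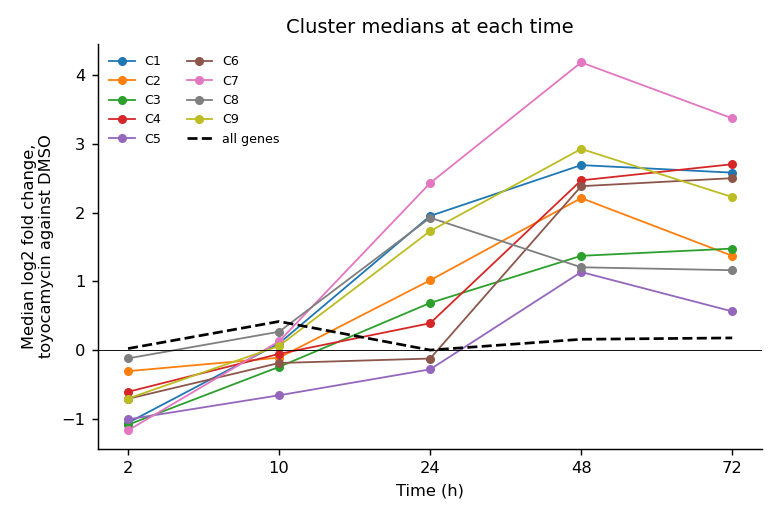
Median log2 fold change of toyocamycin against DMSO in clusters C1 to C9 and over all tested genes (dashed), against time in h, with TMM scaling. All 9 cluster medians lie below 0 at 2 h and above 0 at 48 and 72 h, and C6 and C5 are still below 0 at 24 h.

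C8 lay outside the range of the other clusters in several readouts. Its genes, which encode no KRAB-A pattern and few fingers, had a median DMSO level of 10.3 CPM per kb of exon, while the medians of the other clusters were between 0.455 in C7 and 2.74 in C2. In DMSO, 0 of its 9 members were lower at 72 h than at 2 h, where 11.4% of all genes were. ZNF581 alone was higher, where 10.2% of all genes were. With 9 members, such counts are close to the shares over all genes. The median of C8 was 0.37 and that of all genes -0.03, whereas the medians of the other 8 clusters were between -1.27 and -0.54. ZNF580, of this cluster, was at 25.7, 26.9 and 17.2 CPM in DMSO of 72 h and at 177, 226 and 211 CPM after toyocamycin (3.17 ± 0.26, edgeR adjusted p = 1.63e-08), and at 2 h it was higher in both batches, at 35.6 against 51.7 CPM in batch 1 and at 18.5 against 28.7 CPM in batch 2. Its change at 2 h did not pass the test without the replicate block (0.57 ± 0.30, edgeR adjusted p = 0.422) and passed it with the block (0.58, edgeR adjusted p = 0.0462). ZNF580 and ZNF581 overlap on the same strand, and ZNF580 and ZNF784 were chosen after their values were seen. No test was made between clusters, since members of a cluster are related in sequence and are not replicates.

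The members were also divided by protein, after the data had been seen. The KRAB-A pattern was sought in 1 canonical transcript per gene, so a member without it may still encode a KRAB domain. Of all genes tested, 8.42% were called down at 2 h and 47.0% up at 72 h. Of 86 tested members with a KRAB-A pattern, 37 were down at 2 h and 74 up at 72 h, with medians of -0.89 and 2.55. Of 42 members without it, 14 were down at 2 h and 32 up at 72 h, with medians of -0.56 and 1.22. Without the 9 members of C8, which have no KRAB-A pattern, the latter were 13 of 33 down at 2 h and 25 up at 72 h, with medians of -0.68 and 1.25. No test was made of these differences, and level, exon length and cluster differ between these groups as well. Position within a cluster told little more: the median absolute difference in log2 fold change was 0.71 between adjacent members of a cluster and 0.76 between members of different clusters at 2 h, and 1.47 and 1.78 at 72 h.

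Among members with known roles, chosen after the data had been seen, ZNF274, which marks the 3′ ends of other zinc finger genes for silencing by SETDB1, was at 3.72, 3.99 and 3.22 CPM in DMSO at 72 h and at 64.5, 72.2 and 63.3 CPM after toyocamycin (4.22 ± 0.18, edgeR adjusted p = 8.60e-12). At 2 h it was downregulated, from 4.04 and 3.60 CPM to 2.20 and 1.41 CPM. ZNF91 and ZNF93, in C4, repress SVA and L1 retrotransposons. ZNF91 was at 1.04, 1.49 and 1.76 CPM against 10.1, 5.65 and 8.43 CPM at 72 h (2.51 ± 0.32, edgeR adjusted p = 2.04e-06), and ZNF93 was at 0, 0.232 and 0.215 CPM against 5.60, 3.80 and 3.30 CPM (4.76 ± 0.52, edgeR adjusted p = 3.78e-07). ZNF473, which takes part in histone mRNA processing, rose by 1.97 ± 0.15 on the log2 scale at 72 h (edgeR adjusted p = 4.20e-09).

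The KAP1 corepressor and its partners were set beside all genes. Of 28 genes of that list, all tested, 4 (14.3%) were downregulated at 2 h, where 8.42% of all genes were, and 0 upregulated, with a median of -0.04 against 0.02 for all genes. Those 4 were ATF7IP, MORC3, TRIM24 and TRIM33. At 72 h, 15 (53.6%) were downregulated, where 41.9% of all genes were, and 11 (39.3%) upregulated, where 47.0% were, with a median of -0.60 against 0.18. TRIM28, which encodes KAP1, was at a mean of 766 CPM in DMSO and 335 CPM after toyocamycin (-1.16 on the log2 scale, edgeR adjusted p = 7.75e-05), and the maintenance methyltransferase DNMT1 at 398 and 23.3 CPM (-4.06, edgeR adjusted p = 3.46e-12). SETDB1 was at 22.9 and 29.3 CPM (0.38, edgeR adjusted p = 0.0327), while RBAK, itself a KRAB zinc finger gene, was at 21.9 and 285 CPM (3.73, edgeR adjusted p = 2.84e-10).

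Genes that DMSO cells barely transcribed lay unevenly along the chromosome. Of the 110 genes below the minimum, 29 belong to C7, which has 39 genes in all, and 23 to C4, which has 37, against 1 of 24 in C3 and 0 of 5 in C1 and in C5. Between C5 and C6, the stretch chr19:36182276-37817300 holds 24 ZNF genes, of which 22 were below the minimum and only ZNF565 and ZNF146 were members. ZNF146 was the member with the most counts there, at 77.4, 69.7 and 103 CPM in DMSO of 72 h. The median CpG count of the promoter window was 20 over the genes below the minimum and 21 over the members.

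**Figure D5:**
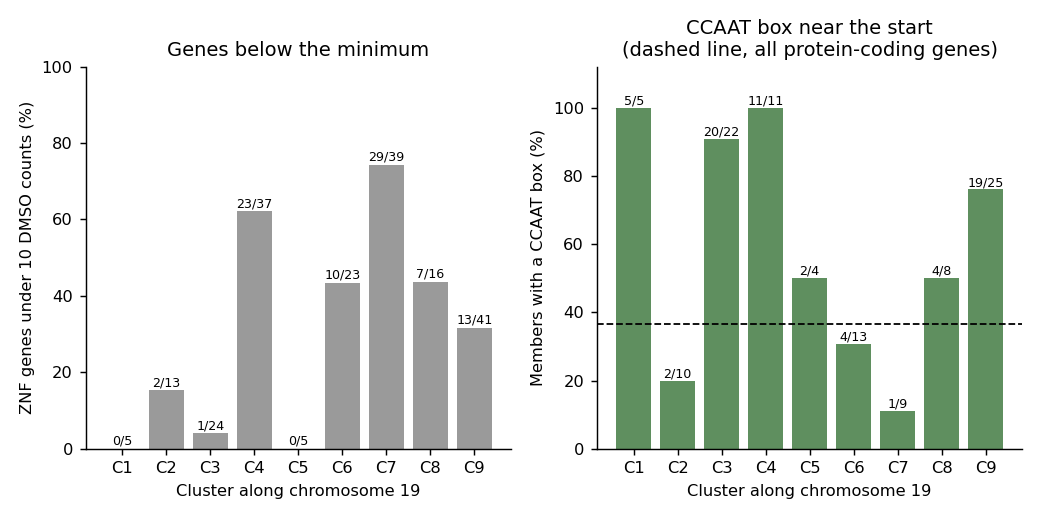
For clusters C1 to C9, the share of ZNF genes with fewer than 10 DMSO counts (left, in percent, with the counts above the bars) and the share of members with a CCAAT box in the promoter window (right, in percent; the dashed line is 36.6%, the share over all protein-coding genes). C7 has the highest share of genes below the minimum, 29 of 39, and the lowest share of windows with a box, 1 of 9. C4, with 23 of 37 genes below the minimum, has a box in 11 of 11 windows. Of the windows of genes below the minimum, not drawn, 43.5% hold a box.

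The genes below the minimum were also counted under toyocamycin, where only the treated counts are a result, since the minimum fixed low counts in DMSO. At 72 h, 37 of the 110 had 0 counts in all 3 toyocamycin libraries, 17 had more than 3 counts in each and 9 had at least 10 in each. The same counts over all genes under the minimum are not given here. The 22 genes between C5 and C6 had 47 counts together in the toyocamycin libraries of 72 h, and none of them had more than 3 counts in every treated library. ZNF550, in C9, had the most, with 198, 221 and 243 counts, and it overlaps ZNF549, which is among the 9 as well. The others were ZNF560, ZNF439, ZNF536, ZNF155, ZNF284, ZNF175 and ZNF304. ZNF284, a neighbour of ZNF224 in C6, had 0 counts at 24 h and 3 at 48 h under toyocamycin, and 50, 61 and 44 at 72 h, which is late, as for ZNF224.

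Sequence shared with other annotated genes limits some of these values. STAR's gene counting uses reads that map to a single place. Of the 129 members, 24 had over 10% of the 100-base windows of their canonical transcript also in the transcript of another gene, while 70 had none. For some, such as ZNF844, ZNF709 and ZNF564, the gene sharing the most windows overlaps the member on the same strand. There a shared window does not mean a second place in the genome. Others, such as ZNF417 and ZNF587, share windows with a member that they do not overlap. Without those 24, 40 of 105 tested members were down at 2 h and 90 were up and 6 down at 72 h. The strand setting of the counting is not given in the sources used here. By whole gene spans, introns included, 67 members overlap an annotated gene on the other strand, ZNF791 and ZNF490 among them. Whether reads of the 2 strands were kept apart there is not known. Members that overlap no protein-coding gene numbered 76, of which 29 were down at 2 h.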

How the data were processed

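YB5 cells were sequenced after 2, 10, 24, 48 and 72 h of 250 nM toyocamycin or DMSO, and groups, replicates and batches were taken from the sample labels. Reads were aligned by the authors with STAR 2.7.5a on GRCh38, as the labels' processing notes and the study's methods give, and deposited raw counts of 19141 genes, which are whole numbers with different totals. Another deposited table, not used here, holds fold changes and p-values of the authors' own comparisons. In the count table, 1 column matches no sample and was not used. Gene names, positions and coding sequences came from GENCODE v44 on the same build, to which 19080 of the gene IDs were matched.

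From these counts, genes were filtered with filterByExpr and scaled with TMM, and contrasts were tested with the quasi-likelihood test of edgeR 4.0.16 in its edgeR 3 form (R 4.3.3, Benjamini-Hochberg adjusted p under 0.1 over all genes tested, no minimum fold change). A fit of 14 libraries, without those of 10 h, gave the results at 2, 24, 48 and 72 h, and a fit of 17 gave that at 10 h, where 1 DMSO library takes its spread from the other groups. The SE of a log2 fold change is its size divided by the square root of F. With 1 library per arm, a log2 fold change beyond 2-fold was counted and not tested. DESeq2 1.42.0 was an alternative, and tables were made with Python 3.11.15, pandas 2.3.3 and numpy 2.4.6. The scripts were tested on simulated data. Differences of single libraries used CPM plus 0.5. At most 3 counts per library was taken as the floor, and counting error is all that floors cover.

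At 2 h the replicate number marks the batch in the labels, and same-numbered libraries deviated together (correlation 0.53). At 72 h the 3 correlations were -0.20, 0.11 and -0.17, so the numbers were not taken as pairs. Libraries are replicates by their labels, and the labels state biological replicates without naming separate cultures, so p-values measure the spread between these libraries.

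Members named in the text were, at 2 and 72 h, up to 5 with the largest rise and 5 with the largest fall among those called whose mean log2 CPM was 2 or more, without overlap between the arms, the member with the most DMSO counts in each cluster, the 3 most positive and 3 most negative differences of effect, and any called group of 5 or fewer. The members, the gene lists and the tests were chosen with earlier results of these data known. Alternatives were other scalings, filters, tests, thresholds, sets of libraries, a batch term, a replicate block, other cluster gaps and leaving out each library.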

Additional observations from a re-analysis of the deposited data

Results flagged for a closer look

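The effect of toyocamycin on the members differed between 72 and 2 h by the test of the difference itself (edgeR quasi-likelihood test, adjusted p under 0.1): 108 of 128 members had a higher effect at 72 h, and 6 had a lower effect. All libraries of 72 h are of batch 1, while 2 of the 4 libraries of 2 h are of batch 2. With batch as a term in all 17 libraries, 107 members had a higher effect and 6 a lower effect.

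Among the 110 ZNF genes of chromosome 19 that were below the count minimum in DMSO, and so outside the comparisons, 9 had at least 10 counts in every toyocamycin library of 72 h. The minimum itself fixed their low counts in DMSO, so these are values of the treated libraries and no comparison was made. The same count over all genes under the minimum is not given here, so whether 9 is many or few cannot be said.

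The second toyocamycin replicate of 10 h held 1329 counts of these 110 genes, spread over 108 of them, which is 152 CPM without TMM of its 8735465 counts. The first toyocamycin replicate of 10 h held 87 counts, the toyocamycin libraries of 72 h held 583 to 677 counts over 46 to 54 of the genes, and the DMSO libraries held 6 to 28. This library has the lowest total of the 17, and the count of members downregulated at 10 h was 29 with both toyocamycin libraries, 36 without this library and 25 without the other.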

How the results depend on the processing

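Of the counts and medians recomputed under the alternatives, 259 stayed within the limits set for a change, 53 moved and 5 changed sign. The scaling shifts the median of all genes, which at 72 h was 0.18 with TMM, 0.50 with DESeq2's size factors, -0.42 with library size alone and -0.89 when the mitochondrially encoded genes set the scale. The members' median minus that of all genes was between 1.92 and 1.95 at 72 h and between -0.79 and -0.75 at 2 h under these 4 scalings. A scaling moves all genes of a library by the same factor, so this difference could hardly change and is no check of the result. At 72 h it was 1.35 with no filter on low counts and 1.61 with all 17 libraries in one fit. With at least 10 counts in every library it was 2.4.

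With scaling on the mitochondrially encoded genes, 9 members were down at 2 h with a median of -0.82 and 0.600% of all genes called down, 49 down and 1 up at 10 h with a median of -1.23, 64 past 2-fold down and 19 up at 24 h with a median of -1.0, which reversed, 30 down and 50 up at 48 h with a median of 0.51, 17 down and 69 up at 72 h with a median of 1.06, and 2 lower and 2 higher in DMSO. In DMSO the median under this scaling was -0.22 for the members and 0.62 for all genes. ZNF714 at 72 h was then at -0.029 and ZNF584 at 72 h at -0.35, both upregulated with TMM. ZNF787 at 72 h (0.31) and ZNF428 at 72 h (0.58) were no longer called, nor were ZNF441 at 2 h (-2.09), ZNF230 at 2 h (-2.11), ZNF556 at 2 h (-1.79), ZNF791 at 2 h (-1.26), ZNF766 at 2 h (-1.19), ZNF101 at 2 h (-1.17), ZNF211 at 2 h (-1.20) and ZNF555 at 2 h (-1.54). With library size alone, 45 members were down and 12 up at 10 h with a median of -0.51, 32 down and 41 up at 24 h with a median of 0.25, 8 down at 48 h with a median of 1.71, 15 down at 72 h with a median of 1.49, and 3 higher in DMSO. With DESeq2's size factors, 17 were down at 10 h with a median of 0.19, which reversed, and the medians were 2.56 at 48 h and 2.41 at 72 h.

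The DESeq2 Wald test gave 19 down at 10 h with a reversed median of 0.20, and medians of 2.61 at 48 h and 2.43 at 72 h. At least 10 counts in every library, which tests fewer genes, gave 17 down at 10 h with a reversed median of 0.083, 7 down at 24 h, 1 down at 48 h, a median of 2.28 at 72 h and 3 higher in DMSO. An adjusted p under 0.05 gave 17 down at 10 h and 2 higher in DMSO, and a limit of 1.5-fold gave 8 down at 48 h. All 17 libraries together gave 2 higher in DMSO, and batch as a term gave 3. With DMSO of 2 h as the reference, added after the data had been seen, 16 members were down at 72 h and the median was 1.23. A gap of 1000 kb raised no sign but moved the highest cluster median at 2 h from -0.12 to -0.31.

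Leaving out each library in turn gave 34 to 60 members down and 0 to 2 up at 2 h, 25 to 36 down at 10 h with medians from -0.39 to 0.013, 101 to 103 up and 9 to 10 down at 72 h, and in DMSO 42 to 81 lower and 1 to 8 higher. The medians were -0.87 to -0.58 at 2 h and 2.03 to 2.19 at 72 h. With the replicate block, 55 members were down and 1 up at 2 h and 105 up at 72 h, and it changed no other call by over 1.5 times. Depth limits the scarce members: 6 of the 129 had at most 3 counts in every DMSO library of 72 h, and their folds depend on the prior count. The cause of these shifts was not tested beyond the scalings themselves.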
